A study of Mus musculus with 22 samples.

Results

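The 10 cancer cell lines of the series were ordered by an index built from 4 genes, and the 5 lines at its upper end were set against the 5 lines at its lower end. The series holds 22 RNA sequencing libraries in all, 10 from these lines and 12 from whole tumors. The lines were selected on measured values: the index is the sum of log2(CPM + 1) of Cdh1 and Epcam minus that of Vim and Zeb1, where CPM is the usual count scaled to the library total. The lines were grown from dissociated pancreatic tumors of Bl6 mice in a genetic model of pancreatic cancer, 5 from animals without microRNA-21 (KO) and 5 from wild-type animals (WT). Per the labels, recombined driver alleles, that of p53 among them, with loss of heterozygosity, were detected in the lines by genotyping, and none was treated. The Cre driver is not given in the sources used here. Each line came from 1 animal, had been passaged at least 8 times to outgrow fibroblasts, and was used at passage 10 to 14 in medium with 5% serum.

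KO lines 3, 4 and 5 and WT lines 3 and 5 formed the upper class (high-index lines), and KO lines 1 and 2 and WT lines 1, 2 and 4 the lower class (low-index lines). The working names of the classes were epithelial-leaning and mesenchymal-leaning. Genotype was not balanced between them and entered every fit as a covariate, except where stated.

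Carcinoma cells can pass between an epithelial state, held together by E-cadherin junctions, tight junctions, desmosomes and an apical pole, and a mesenchymal state with vimentin, N-cadherin and matrix proteins. Transcription factors of the Zeb, Snail and Twist families drive the passage by repressing junction genes, and Zeb1 and the microRNA-200 family repress each other. Pancreatic cancer cells often hold intermediate states in which genes of both programmes are expressed.

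Zeb1 and the Snail proteins bind the E-box CACCTG, read on the other strand as CAGGTG, and for this reason the upstream sequences of 2 genes described below are shown. Ap1m2 and Cldn4 were the members of their lists with the smallest p values. The 250 bases before each start are from RefSeq on build GRCm38.p6 and are printed 5′ to 3′ on the minus strand, with matches in capitals. That of Ap1m2 spans chr9:21312334-21312583 and that of Cldn4 chr5:134946935-134947184.
Ap1m2: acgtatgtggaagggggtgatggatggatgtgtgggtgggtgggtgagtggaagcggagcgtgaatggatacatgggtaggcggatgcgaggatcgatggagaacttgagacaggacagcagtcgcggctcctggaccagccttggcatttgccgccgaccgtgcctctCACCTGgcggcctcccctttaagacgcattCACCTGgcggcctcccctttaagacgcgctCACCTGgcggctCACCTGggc
Cldn4: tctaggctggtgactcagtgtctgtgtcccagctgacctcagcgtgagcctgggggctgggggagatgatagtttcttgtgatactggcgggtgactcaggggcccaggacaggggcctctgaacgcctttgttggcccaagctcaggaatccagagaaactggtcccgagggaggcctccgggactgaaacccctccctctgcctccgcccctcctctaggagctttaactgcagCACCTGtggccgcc

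Ap1m2 held 4 matches, which began 81, 51, 21 and 9 bases before the start, and Cldn4 held 1, which began 14 bases before it. On either strand, 17.2% of the 32851 promoters of the table held the motif in the same window, and 14 promoters (0.0426%) held 4 or more. Of 16 promoters found for 12 of the 18 genes of the junction list described below, 8 (50.0%) held it. For the apical polarity, traffic and protease list it was 8 of 14 promoters (57.1%), from 10 of 16 genes, and for the proliferation list 1 of 19 (5.26%), from 18 of 22 genes. The desmosome list had 2 promoters in the table, for 2 of its 10 genes, and 0 of them held it. In Ap1m2 the stretch after the match at 81 bases is repeated almost letter for letter after that at 51 bases. At least these 2 of its 4 matches are therefore not separate occurrences. These matches are letters in a window and were not tested as sites. The shares of the lists were not tested against that of all promoters, and no link between the motif and the levels below was tested.

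The values that chose the classes are given here without a test. The index was 0.86 in KO line 4, -0.18 in KO line 3, -1.40 in WT line 3, -1.87 in KO line 5 and -1.98 in WT line 5. Among low-index lines it was -2.52 in WT line 2, -3.32 in KO line 2, -4.32 in KO line 1, -4.50 in WT line 1 and -4.54 in WT line 4. WT line 5 and WT line 2, the neighbours on either side of the boundary, thus lay closer to each other than to most lines of their own class. Values for single lines below follow this order, and CPM of all but the ranking genes are also scaled by TMM factors.

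**Figure D1:**
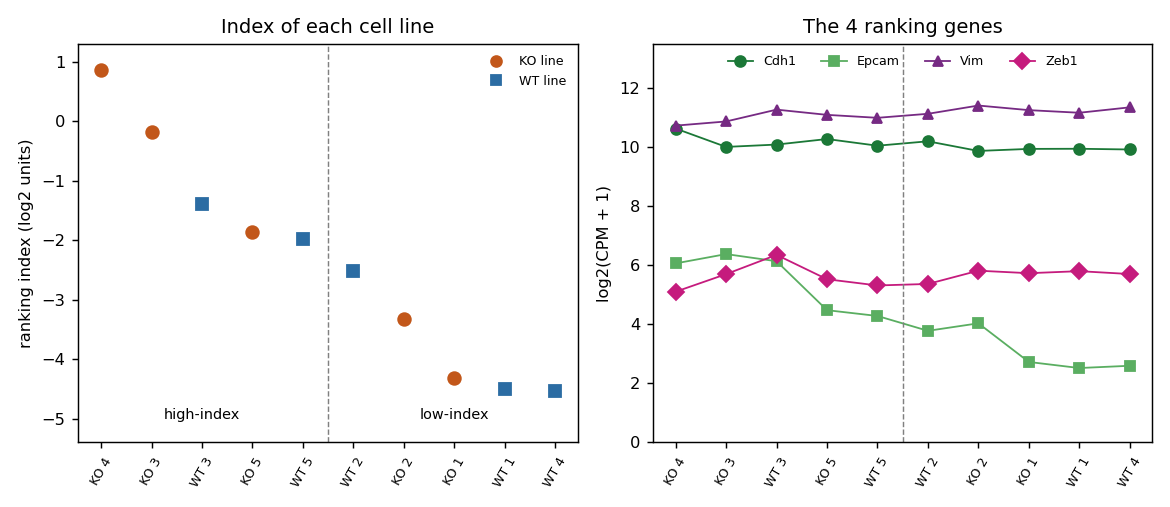
The left panel plots the index of each line in log2 units, and the right panel log2(CPM + 1) of the 4 genes that make it, for the lines in index order, with the class boundary dashed. The index is highest in KO line 4, at 0.86, and lowest in WT line 4, at -4.54, and the steepest of the 4 curves is that of Epcam, which spans 3.86 log2 units against 0.76 for Cdh1, 0.68 for Vim and 1.25 for Zeb1.

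Epcam, an epithelial cell adhesion protein, carried 75.4% of the variance of the index. It ran from 4.74 to 82.4 CPM over the lines, while Cdh1, which encodes E-cadherin, ran from 939 to 1589 CPM and contributed 9.17%. Vim, which encodes the intermediate filament vimentin, ran from 1702 to 2729 CPM (9.35%), and Zeb1, a repressor of epithelial genes, from 33.5 to 80.8 CPM (6.14%). WT line 3 stood in the high-index class with 80.8 CPM of Zeb1, more than any other line. The order of the lines is therefore mainly an order by Epcam.

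Among genes that the ranking did not use, the keratins and N-cadherin did not bear out the working names. Krt8, a keratin of simple epithelia, stood at 2629, 1873, 2006, 2045 and 3402 CPM in high-index lines, against 2476, 1857, 2411, 2145 and 3287 CPM in low-index lines. The 2 classes covered nearly the same range. Krt18, its partner, had 1555 to 3648 CPM over the 10 lines, and Krt19, a keratin of ducts, had 641 CPM in WT line 3 and 2007 to 3963 CPM elsewhere. Of 7 keratins listed, 3 stood above and 4 below 0 on the log2 scale of high-index minus low-index lines (median -0.20), with 0 at an unadjusted p under 0.05 by edgeR. That median was 0.17 with Xist status, described below, as a covariate, 0.18 in the lines without Xist, and between -0.34 (without WT line 5) and 0.072 (without WT line 3) with single lines left out. Cdh2, which encodes N-cadherin and marks mesenchymal cells, stood at 50.2, 64.4, 106, 41.4 and 46.4 CPM in high-index lines, against 21.7, 28.5, 57.4, 59.0 and 44.6 CPM in low-index lines. Its highest value was thus in a high-index line. The classes are therefore called by their index, and no state is assigned to them.

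Several facts of the libraries bear on the comparison. Line totals ran from 24796473 to 31118113 counts, so that 3 counts in the smallest line, the limit that a count of 0 allows, came to 0.121 CPM, from counting error only. No 2 lines had identical values, and between the most alike pair the counts differed by a chi-square of 51.2 for each degree of freedom. Mir21a had 0 counts in all 22 libraries, WT included, so genotype labels could not be checked on it. Over all genes tested, WT line 3 stood farthest from the rest, with a median correlation of 0.948 on log2 CPM with the other lines. The others had 0.957 to 0.979, described across genes of lines that share a library protocol. For KO lines 3, 4 and 5 and WT line 5 it was 0.961 to 0.978 with low-index lines, but 0.949 to 0.971 with their own class. WT line 3 had 0.945 with low-index lines and 0.950 with its own class. Every low-index line had the higher median correlation with its own class. Xist, the RNA that silences 1 X chromosome in females, stood at 1516, 1183 and 2630 CPM in KO line 4, KO line 3 and WT line 3, the 3 lines of highest index, and at 0.380 CPM or less in the other 7. The 4 Y-linked genes listed had 0 counts in those 3 lines, and in WT line 2, with 0.196 CPM of Xist, 3 had 0 counts and Kdm5d 0.0392 CPM. WT line 1 lacked Ddx3y, and WT lines 4 and 5 lacked Eif2s3y. Xist was thus high in 3 of 5 high-index and 0 of 5 low-index lines. Since these 3 lines are those of highest index, Xist status and a high index cannot be told apart. With Xist as a covariate, the class term rests mainly on KO line 5 and WT line 5 against the low-index lines. Values with Xist status as a covariate, or in the 7 lines without Xist, are given for lists of at least 7 tested genes. They are given where they turned the median or moved it by over 1.5 times.

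Over all genes no difference between the classes passed the test. Fold changes are log2 values of high-index minus low-index lines with their standard error (SE), and p values are from edgeR's quasi-likelihood test with Benjamini-Hochberg adjustment over 15555 genes. The 4 ranking genes were left out. The test called 0 genes higher and 0 lower at an adjusted p under 0.05 (0.0% each), and the smallest adjusted p was 0.468. At an unadjusted p under 0.05, 723 genes stood higher (4.65%) and 534 lower (3.43%), 1257 in either direction (8.08%), and 115 genes in each direction (0.739%) did not overlap between the classes. The median log2 fold change was 0.0035, with 50.5% of genes above 0. DESeq2 called 79 genes higher (0.508%) and 26 lower (0.167%) on the same counts, and limma-voom called 0 and 0. All differences below are therefore given as values, none as a change. Each line is a separate culture from another animal, and p values measure the spread among these lines. The classes come from the same libraries, so each test asks only whether a gene followed the 4 ranking genes over the lines.

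Most genes of the junction list lay slightly above 0, and none passed. Of 18 genes fixed for epithelial junctions 17 were tested, 16 had a log2 fold change above 0 (50.5% of all genes did), and the median was 0.33. Of these, 3 had an unadjusted p under 0.05 on the higher side (4.65% of all genes did) and 0 on the lower. Their summed level was 1887 to 2387.5 CPM in high-index and 1355 to 1956 CPM in low-index lines. Without KO line 2 only 1 member had such a p. With Xist as a covariate 11 of 17 were above 0, with 0 members at such a p on the higher side and 1 on the lower. Among WT lines alone the median was 0.02, with 8 of 15 above 0.

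Cldn4 (ENSMUSG00000047501.3, build mm10, chromosome 5, 134945119 to 134946934, minus strand), which encodes a claudin of tight junctions, showed the widest contrast of the list. It stood at 14.5, 28.5, 28.8, 3.18 and 5.87 CPM in high-index lines, against 4.90, 1.80, 1.15, 0.104 and 0.865 CPM in low-index lines. The 3 lines with Xist were far above all others, and KO line 5 lay below WT line 2, so the classes overlapped. This gave a log2 fold change of 3.27 ± 0.94 (SE), and the adjusted p was 0.602 by edgeR and 0.0108 by DESeq2. Ocln, which encodes occludin, had 0.84 ± 0.33, and Lsr, a receptor that seals the corners where 3 cells meet, 0.46 ± 0.17, each with an adjusted p of 0.602 or more. Other claudins differed from it. Cldn3 stood at 16.3, 121, 11.6, 2.95 and 0.515 CPM in high-index lines, against 96.5, 62.1, 14.9, 15.2 and 2.31 CPM in low-index lines, with a log2 fold change of -1.16 ± 1.53. Cldn7, another claudin of ducts, had 0.88 ± 0.96.

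Desmosome genes, whose products anchor keratin filaments at cell contacts, had a median log2 fold change of 0.49. Of 10 genes 9 were above 0 (50.5% of all genes were). On the higher side 3 had an unadjusted p under 0.05 (4.65% of all genes did). Dsp (ENSMUSG00000054889.10, chromosome 13, 38151294 to 38198577, plus strand) encodes desmoplakin, the link to keratin. Its levels were 505, 302, 516, 175 and 461 CPM in high-index lines, against 314, 196, 195, 243 and 199 CPM in low-index lines. KO line 5 held the lowest value of all 10 lines, and 3 of the other high-index lines lay above the low-index range. Its log2 fold change was 0.85 ± 0.25 (adjusted p 0.602, edgeR). Pkp3, a plakophilin of the desmosomal plaque, had 1.54 ± 0.48, and Ppl, which encodes periplakin, 0.63 ± 0.25. Dsc2, a desmosomal cadherin, had -0.69 ± 0.99, with 2.08 to 44.9 CPM over the lines. The median was 0.26 without KO line 4, 0.27 with Xist as a covariate and 0.28 in the 7 lines without Xist.

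The list of apical polarity, vesicle traffic and surface protease genes stood above 0 for most members, none of which passed. These genes set up the apical pole, carry cargo to it, or cleave and inhibit proteins at the cell surface. Of 16 genes 15 were tested, 13 were above 0, the median log2 fold change was 0.66, and 9 had an unadjusted p under 0.05 on the higher side, against 4.65% of all genes. Summed levels were 1131 to 2077.5 CPM in high-index and 520 to 1122 CPM in low-index lines. None was called, and the smallest adjusted p was 0.580.

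Ap1m2 (ENSMUSG00000003309.14, chromosome 9, 21294275 to 21312337, minus strand), the adaptor subunit that sorts cargo to the basolateral membrane of epithelia, stood at 5.52, 0.966, 2.32, 0.361 and 0.119 CPM in high-index lines. In low-index lines it had 0.0784, 0.229, 0.0675, 0 and 0.0721 CPM, all but 1 of them below the level of 3 counts in the smallest line. WT line 5 lay within the low-index range. The log2 fold change of 4.17 ± 1.07 rests on these few counts and is no bound (adjusted p 0.580 by edgeR, 0.0145 by DESeq2). Rab25, a small GTPase of apical recycling, had 4.72, 0.608, 5.83, 0.131 and 0.515 CPM in high-index lines, against 0.549, 0.653, 0.203, 0.207 and 0.180 CPM in low-index lines, so that KO line 4 and WT line 3 alone stood apart (2.70 ± 0.99).

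Mal2, a transcytosis protein, was the member whose classes did not overlap, as did 0.739% of all genes in that direction. It stood at 138, 50.5, 40.6, 38.1 and 43.5 CPM in high-index lines, against 20.6, 34.6, 13.2, 34.998 and 26.8 CPM in low-index lines (log2 fold change 1.14 ± 0.44, edgeR adjusted p 0.603). Pard6b, a subunit of the Par polarity complex, had 0.76 ± 0.24, Llgl2, a basolateral polarity protein, 0.54 ± 0.20, Crb3, the apical Crumbs protein, 0.66 ± 0.28, and Myo5c, a motor of secretory granules, 1.15 ± 0.38. St14, the membrane protease matriptase, had 2.03 ± 0.89, and Spint2, an inhibitor of such proteases, 0.54 ± 0.23. The list depended on the lines with Xist, which are those of highest index. With Xist status as a covariate the median was 0.32, with 8 of 15 above 0 and 2 at an unadjusted p under 0.05, and in the 7 lines without Xist it was 0.33, with 10 of 15 above 0 and 2 at such a p. Without KO line 1, KO line 4 or WT line 3, the number at such a p was 5 each time.

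**Figure D2:**
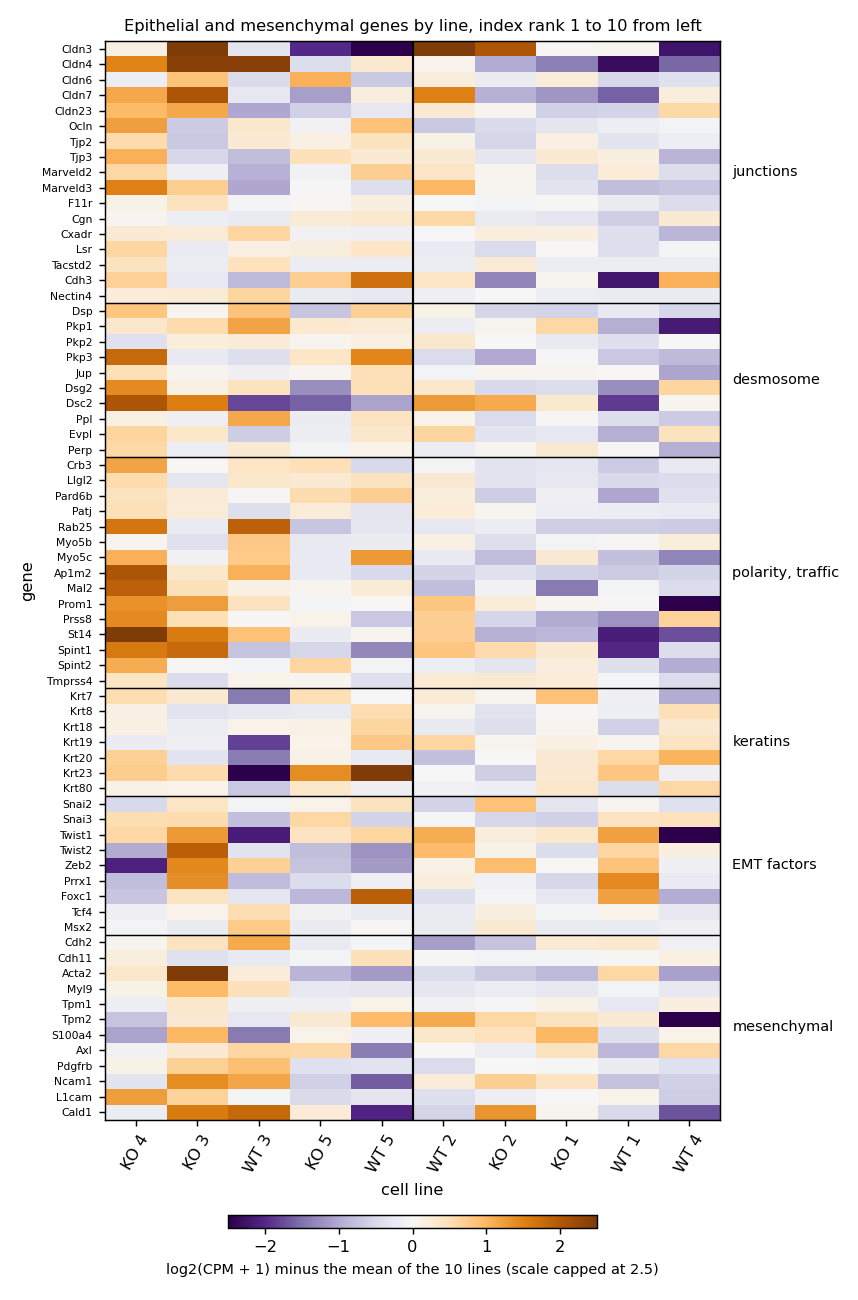
Heat map of log2(CPM + 1) minus the mean of the 10 lines, with 1 gene per horizontal band and the cell lines in index order from left to right, the class boundary drawn as a vertical line. Cldn4 and Ap1m2 have their highest values in the 3 leftmost lines, and Krt8, Krt18 and Krt19 show no step at the boundary. KO line 3 and WT line 3, both high-index, hold the highest values of several mesenchymal genes.

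Transcription and splicing factors of epithelial cells were split. Of 20 genes 19 were tested and 12 were above 0. At an unadjusted p under 0.05 were 2 on the higher side and 1 on the lower, against 4.65% and 3.43% of all genes. The median was 0.09. It was 0.018 without KO line 4, 0.051 without WT line 4, and 0.15 to 0.20 without KO line 3, KO line 5 or WT line 5. Ovol2, a repressor of Zeb1, had 1.41 ± 0.56 at 2.59 CPM or less in every line, and Foxa2, a factor of endodermal organs, 0.52 ± 0.20. On the lower side was Pdx1, the factor that specifies the pancreas, at 47.7, 52.0, 65.9, 59.3 and 32.2 CPM in high-index lines, against 79.1, 95.4, 78.5, 75.0 and 59.5 CPM in low-index lines. Only WT line 3 reached into the low-index range, and the log2 fold change was -0.63 ± 0.19 (edgeR adjusted p 0.602). Esrp1, a regulator of epithelial splicing, stood at 22.9, 49.9, 8.82, 2.20 and 15.5 CPM in high-index lines, against 18.8, 1.53, 1.08, 1.63 and 0.288 CPM in low-index lines, and WT line 2, the neighbour of the boundary, held a level of the upper class (2.497 ± 1.42, edgeR adjusted p 0.683). Grhl2, a factor that maintains E-cadherin, had 0.67 ± 0.65. Ovol1 was too low to be tested, with 0.585 CPM or less in every line. The microRNA-200 loci were not tested either, since Mir200b, Mir200c, Mir141 and Mir429 had 0 counts in all 10 lines and Mir200a 0.0748 CPM in WT line 3 and 0 elsewhere, and such short genes are poorly caught by these libraries.

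No factor that drives the mesenchymal state passed, and the list was split. Of 11 genes 9 were tested, 5 were above 0 and 4 below, the median was 0.08, and 0 had an unadjusted p under 0.05 in either direction. The median was -0.099 with Xist as a covariate, and between -0.31 (without KO line 1) and 0.15 (without WT line 1) with single lines left out. Zeb2, the relative of Zeb1, stood at 0.752, 19.1, 10.99, 3.48 and 2.38 CPM in high-index lines, against 7.13, 13.1, 6.52, 12.3 and 5.88 CPM in low-index lines. Both its lowest and its highest value thus lay in the high-index class, and the log2 fold change was -0.34 ± 0.75. Twist1 had 18.8, 30.6, 1.94, 16.1 and 18.8 CPM in high-index lines, against 26.9, 13.7, 15.4, 28.9 and 0.108 CPM in low-index lines (-0.13 ± 1.04), with 1 line of each class far below its fellows. Snai2, which encodes Slug, had 0.08 ± 0.37 at 2.78 to 9.14 CPM, and Prrx1, a mesenchymal homeobox factor, -0.25 ± 0.76. Foxc1, a forkhead factor, had the smallest p of the list, at 0.47 ± 0.67 (edgeR adjusted p 0.883). Snai1 was too low to be tested, at 0.392 CPM or less in every line.

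The direction of mesenchymal adhesion and contractile genes depended on the lines with Xist. Of 14 genes 12 were tested, 10 were above 0, the median was 0.43, and 0 had an unadjusted p under 0.05. With Xist as a covariate the median was -0.44 with 4 of 12 above 0, and in the 7 lines without Xist it was -0.44 with 4 of 11. Without WT line 3 it was 0.14. Cdh2 had a log2 fold change of 0.57 ± 0.34. Acta2, smooth muscle actin, was at 32.8 CPM in KO line 3 and at 2.35 CPM or less in the other 9 lines. Myl9, a light chain of contractile myosin, had the smallest p of the list, at 2.61 ± 1.24 and 1.40 CPM or less (edgeR adjusted p 0.624), and -1.81 with Xist as a covariate. Axl, a receptor kinase of mesenchymal carcinoma cells, had 0.00 ± 0.39, with 157 to 636 CPM in high-index and 230 to 631 CPM in low-index lines.

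Matrix genes had wide ranges within the high-index class, and the direction of the list rested on KO line 3 and WT line 3. Of 24 genes 19 were tested, 13 were above 0 and the median was 0.60. On the higher side 2 had an unadjusted p under 0.05 (Mmp3, a matrix protease, and Thbs2, a thrombospondin). On the lower side 1 did (Col6a2, a chain of collagen VI). Over all genes 4.65% had such a p on the higher side and 3.43% on the lower. The median was -0.15 without KO line 3 and -0.22 without WT line 3, with 8 of 19 above 0 each time, and 0.97 without WT line 5. With Xist as a covariate it was -0.72 and in the 7 lines without Xist -0.81, with 4 of 19 above 0 in both. Fn1, which encodes fibronectin, stood at 606, 2487, 2372, 847 and 252 CPM in high-index lines, against 525, 1028, 764, 891 and 931 CPM in low-index lines. KO line 3 and WT line 3 held the highest values and WT line 5 the lowest, all in the same class, and the log2 fold change was 0.65 ± 0.56. It was -0.18 without WT line 3, and -0.68 with Xist as a covariate. Mmp3 had 2.71 ± 1.01 at 3.63 CPM or less. Levels are compared between lines for 1 gene at a time, since CPM are not scaled to gene length.

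Genes of TGF-beta signalling, an inducer of the mesenchymal state, had a median of 0.11. Of 21 genes 16 were above 0, and 2 had an unadjusted p under 0.05 on the higher side (4.65% of all genes did). Without WT line 3 the median was -0.11 with 8 of 21 above 0, and with Xist as a covariate or in the 7 lines without Xist it was -0.15 with 7 of 21. It was 0.16 to 0.25 without KO line 1, 2, 4 or 5 or WT line 5. The 2 genes were Smad6, an inhibitor of BMP signalling (0.95 ± 0.33), and Smad3, a transducer of TGF-beta (0.41 ± 0.15). For Smad3 the levels were 242, 271, 219, 263 and 308 CPM in high-index lines, against 189, 194, 258, 167 and 159 CPM in low-index lines, and KO line 1 alone lay among the high-index values. Both had an adjusted p of 0.602 by edgeR. Integrins and the chains of an epithelial laminin, which anchor epithelial cells to the basement membrane, were split 8 above and 7 below 0 of 15, with a median of 0.14. This was 0.019 to 0.070 without KO line 2, 3 or 4 or WT line 2, 3 or 5, -0.18 with Xist as a covariate and -0.16 in the 7 lines without Xist. Itga6, the integrin alpha 6 chain, had the smallest p, at 423, 555, 358, 494 and 366 CPM in high-index lines, against 599.8, 602, 717, 664 and 406 CPM in low-index lines (-0.52 ± 0.16, edgeR adjusted p 0.602).

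Markers of the classical pancreatic cancer subtype, which resemble gastric and ductal mucosa, were split in high-index lines. Of 17 tested genes 11 were above 0 and 6 below, with a median of 0.25. At an unadjusted p under 0.05 were 3 on the higher side and 1 on the lower, against 4.65% and 3.43% of all genes. The median was -0.071 without KO line 4, -0.048 without KO line 2 and 0.10 without KO line 1, but 0.37 to 0.41 without KO line 3, WT line 3 or WT line 4, and 0.59 in the 7 lines without Xist. Muc5ac (ENSMUSG00000037974.16, chromosome 7, 141788972 to 141819231, plus strand), a gel-forming mucin of gastric surface cells, stood at 4753, 47.0, 325, 719.6 and 275 CPM in high-index lines, against 40.0, 89.0, 50.5, 4.67 and 5.37 CPM in low-index lines. KO line 4 was far above the rest, while KO line 3 lay within the low-index range. Its log2 fold change was 4.45 ± 1.12 (adjusted p 0.580 by edgeR, 0.00684 by DESeq2). Ctse, the gastric protease cathepsin E, had 1.57 ± 0.67, with 1510 CPM in KO line 4. Cdh17, a cadherin of intestinal epithelium, went the other way, at 164, 763, 51.02, 228 and 119 CPM in high-index lines, against 1070, 549.5, 392, 815 and 443 CPM in low-index lines (-1.74 ± 0.77, edgeR adjusted p 0.615). KO line 3 was the high-index line that reached the low-index range. Of 8 tested genes of the basal squamous subtype 6 were above 0 (median 0.42), and Sfn, which encodes 14-3-3 sigma, had the smallest p, with 1.16 ± 0.39. The median was 0.018 without KO line 4, 0.21 without KO line 2 and 0.97 without WT line 3, and with Xist as a covariate it was -0.047 with 3 of 8 above 0.

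The hypoxia and glycolysis list was split. Of 15 genes 6 were above 0 and 9 below, with a median of -0.17. The 3 with an unadjusted p under 0.05 were all on the higher side, where 4.65% of all genes had such a p. These were Car9, Vegfa and Ndrg1, known targets of hypoxia signalling. Car9 (ENSMUSG00000028463.14, chromosome 4, 43506966 to 43513729, plus strand), the carbonic anhydrase that acidifies the medium, stood at 116, 3.11, 21.0, 44.6 and 56.5 CPM in high-index lines, against 5.33, 2.35, 4.46, 1.21 and 2.20 CPM in low-index lines. Only KO line 3 lay among the low-index values. Its log2 fold change was 3.87 ± 0.85 (adjusted p 0.506 by edgeR, 0.00248 by DESeq2). Vegfa, the endothelial growth factor, did not overlap, at 148, 248, 209, 197 and 138 CPM in high-index lines, against 129.7, 119.9, 116, 106 and 105 CPM in low-index lines (0.68 ± 0.17, edgeR adjusted p 0.580). A lack of overlap in that direction was found for 0.739% of all genes. Ndrg1 had 0.72 ± 0.25. Slc2a1, the glucose transporter, had 0.20 ± 0.17, Pkm, the pyruvate kinase of glycolysis, -0.01 ± 0.26, and Ldha, lactate dehydrogenase, -0.29 ± 0.21. The median ran between -0.29 (without WT line 5) and 0.078 (without WT line 3) with single lines left out, and was 0.18 with Xist as a covariate.

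Proliferation genes stood lower in high-index lines nearly throughout the list. Of 22 genes 21 were below 0 (49.5% of all genes were), the median log2 fold change was -0.42, and 9 had an unadjusted p under 0.05 on the lower side (3.43% of all genes did). Ccna2 (ENSMUSG00000027715.9, chromosome 3, 36564865 to 36572150, minus strand), which encodes the cyclin of S phase and early mitosis, stood at 128, 156, 137, 142 and 179 CPM in high-index lines, against 186, 249, 202, 290.2 and 337 CPM in low-index lines. The classes did not overlap, as for 0.739% of all genes in that direction. Its log2 fold change was -0.72 ± 0.17 (adjusted p 0.573 by edgeR, 0.0328 by DESeq2). Exosc9 on the other strand overlaps Ccna2, with counts amounting to 19.9% of those of Ccna2, and had -0.35 ± 0.19.

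Mcm4, a subunit of the replicative helicase, was the other gene of the list without overlap, at 166 to 202 CPM in high-index and 205 to 249 CPM in low-index lines (-0.27 ± 0.11). Birc5, which encodes the mitotic protein survivin, had -0.70 ± 0.21, Rrm2, a subunit of ribonucleotide reductase, -0.80 ± 0.33, Top2a, the topoisomerase of mitotic chromosomes, -0.48 ± 0.18, and Mki67, the Ki-67 antigen, -0.43 ± 0.19. Cdk1, the kinase that drives mitosis, had 0.06 ± 0.16 and was the member above 0. WT line 4 held the highest Ccna2, Top2a, Birc5 and Rrm2 of all 10 lines. The number at an unadjusted p under 0.05 was 2 without KO line 2, 4 without KO line 4 or WT line 4, and 5 without KO line 3, KO line 5 or WT line 1. With Xist as a covariate the median was -0.26 with 3 at such a p, and in the 7 lines without Xist it was -0.24 with 3. Lines were collected at 60 to 80% confluence per the labels, and where each line lay within that range is not given in the sources used here.

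**Figure D3:**
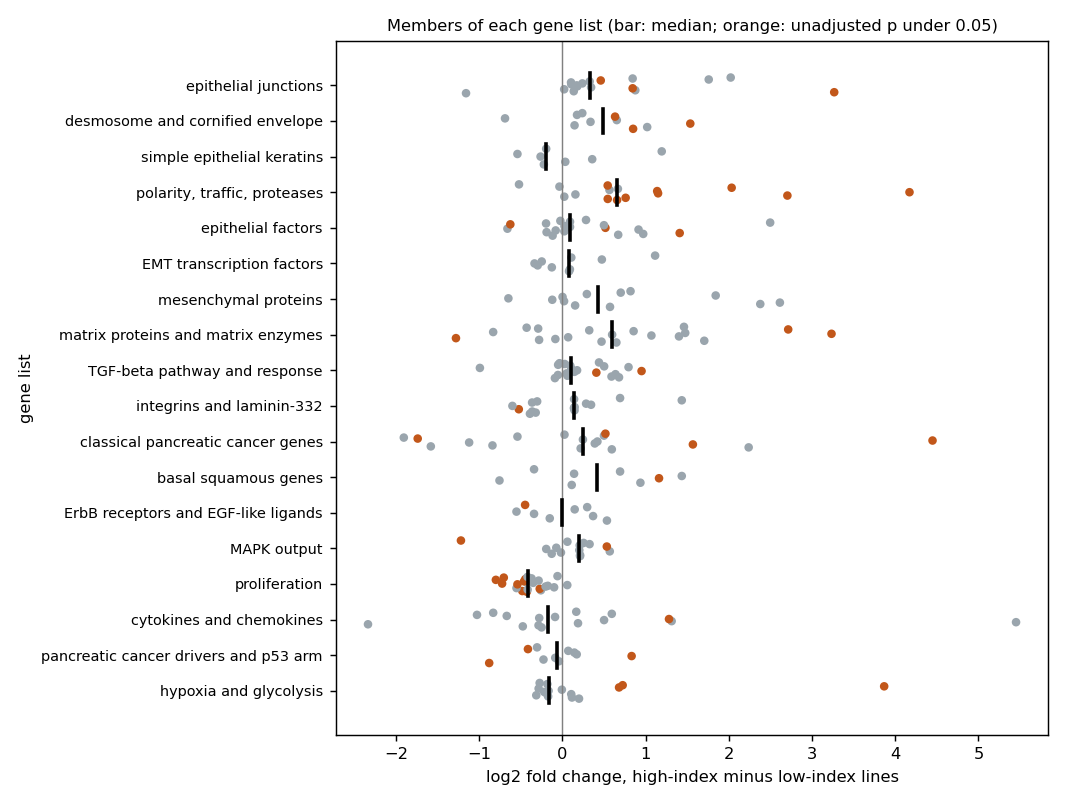
Log2 fold changes (high-index minus low-index lines, horizontal axis) of all tested members of 18 gene lists, 1 point per gene, with the median of each list as a black bar and members at an unadjusted p under 0.05 in orange. The polarity, traffic and protease list holds 9 orange points, all to the right of 0, and the proliferation list 9, all to the left, while EMT transcription factors hold 0.

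Growth signalling lists were split. ErbB receptors and their ligands had 4 of 8 tested genes above 0 and a median of 0.00, with Btc, the ligand betacellulin, at -0.45 ± 0.16. MAPK output genes had 9 of 14 above 0 and a median of 0.21, with Egr1, an immediate early factor, at -1.22 ± 0.38 and Etv5, a factor induced by ERK, at 0.53 ± 0.18. Egr1 reached 238 and 173 CPM in KO lines 2 and 1 but 27.1 to 65.5 CPM in the other 8, high-index lines included. Cytokine and chemokine genes had 7 of 16 tested genes above 0 and a median of -0.17, with Ccl20, which attracts dendritic cells and T cells, at 1.28 ± 0.51. All 4 had an edgeR adjusted p of 0.602 or more. With Xist as a covariate the median was -0.19 for the ErbB list and -0.50 for the cytokine list. With single lines left out, that of the cytokine list ran between -0.35 (without KO line 1) and 0.20 (without WT line 2), and that of the MAPK list was as low as 0.032 (without WT line 5).

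Among driver genes of pancreatic cancer, 4 of 10 were above 0 and the median was -0.06. At an unadjusted p under 0.05 were 1 higher and 2 lower genes, against 4.65% and 3.43% of all genes. The median was between -0.14 (without KO line 5) and 0.0072 (without KO line 4) with single lines left out, and -0.0037 with Xist as a covariate. Cdkn1a, the p21 inhibitor of the cell cycle, had 0.83 ± 0.34, and Trp53 -0.04 ± 0.44 at 2.97 to 15.5 CPM.

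The 10 genes with the smallest p in each direction were also examined, since no gene passed. On the higher side Tbc1d16 (ENSMUSG00000039976.4, chromosome 11, 119143045 to 119228499, minus strand), a GTPase-activating protein for Rab proteins, stood at 35.3, 42.0, 48.8, 46.0 and 44.5 CPM in high-index lines, against 20.7, 17.8, 21.1, 11.3 and 19.3 CPM in low-index lines. The difference was 1.26 ± 0.19 (adjusted p 0.468 by edgeR, 1.75e-05 by DESeq2). The classes did not overlap. Gpt2, an aminotransferase that makes glutamate from alanine and the reverse, had 1.27 ± 0.22 and overlapped. Hexa, a lysosomal hexosaminidase, stood at 71.8, 47.9, 33.7, 35.2 and 39.6 CPM in high-index lines, against 18.9, 23.6, 25.5, 15.3 and 11.6 CPM in low-index lines (1.17 ± 0.21, edgeR adjusted p 0.468), without overlap. Cish, an inhibitor of cytokine signalling (1.24 ± 0.23), Tsc22d3, the glucocorticoid-induced leucine zipper (1.37 ± 0.25), Rnd1, a small GTPase of the cytoskeleton (1.08 ± 0.23), and Trp53inp2, an autophagy protein (0.54 ± 0.12), also did not overlap. Uggt2, a glycoprotein folding sensor (2.53 ± 0.54), did overlap. Chchd10, a mitochondrial protein (1.14 ± 0.24), also did not overlap. It shares bases with Mmp11 on the other strand, which had 166% of its counts, and its value is uncertain since the strand setting of the counting is not given in the sources used here.

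On the lower side Arl4a, a small GTPase of the Arf family, stood at 10.0, 17.5, 8.15, 9.88 and 7.06 CPM in high-index lines, against 27.0, 32.2, 21.0, 19.1 and 29.1 CPM in low-index lines (-1.41 ± 0.25, edgeR adjusted p 0.468). Fgfr4, a fibroblast growth factor receptor, had 17.2, 12.9, 8.63, 10.2 and 5.19 CPM in high-index lines, against 29.4, 26.3, 27.7, 19.3 and 40.5 CPM in low-index lines (-1.55 ± 0.31, adjusted p 0.506). S100a10, the partner of annexin A2, had 301, 287, 239, 230.4 and 249 CPM in high-index lines, against 407, 370.2, 363, 399 and 372 CPM in low-index lines (-0.56 ± 0.11, adjusted p 0.506). None of the 3 overlapped between classes. The same held for Ckap2l, a mitotic spindle protein (-0.58 ± 0.12), Fignl1, a DNA repair ATPase (-0.77 ± 0.17), Ammecr1 (-0.99 ± 0.21) and Prps1l3 (-0.52 ± 0.12), which shares bases with Mipol1 on the same strand. Dok2, an adaptor of receptor kinases (-1.50 ± 0.29), Dlx2, a homeobox factor (-2.76 ± 0.58), and Hip1, an endocytic protein (-0.86 ± 0.19), overlapped. DESeq2 called all 20 genes of these 2 groups and edgeR 0, the smallest edgeR adjusted p being 0.468. The 20 were picked by their edgeR p on the same counts, so these calls and the lack of overlap are no separate support. Over all genes DESeq2 called 0.508% higher and 0.167% lower, and 0.739% in each direction did not overlap.

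**Figure D4:**
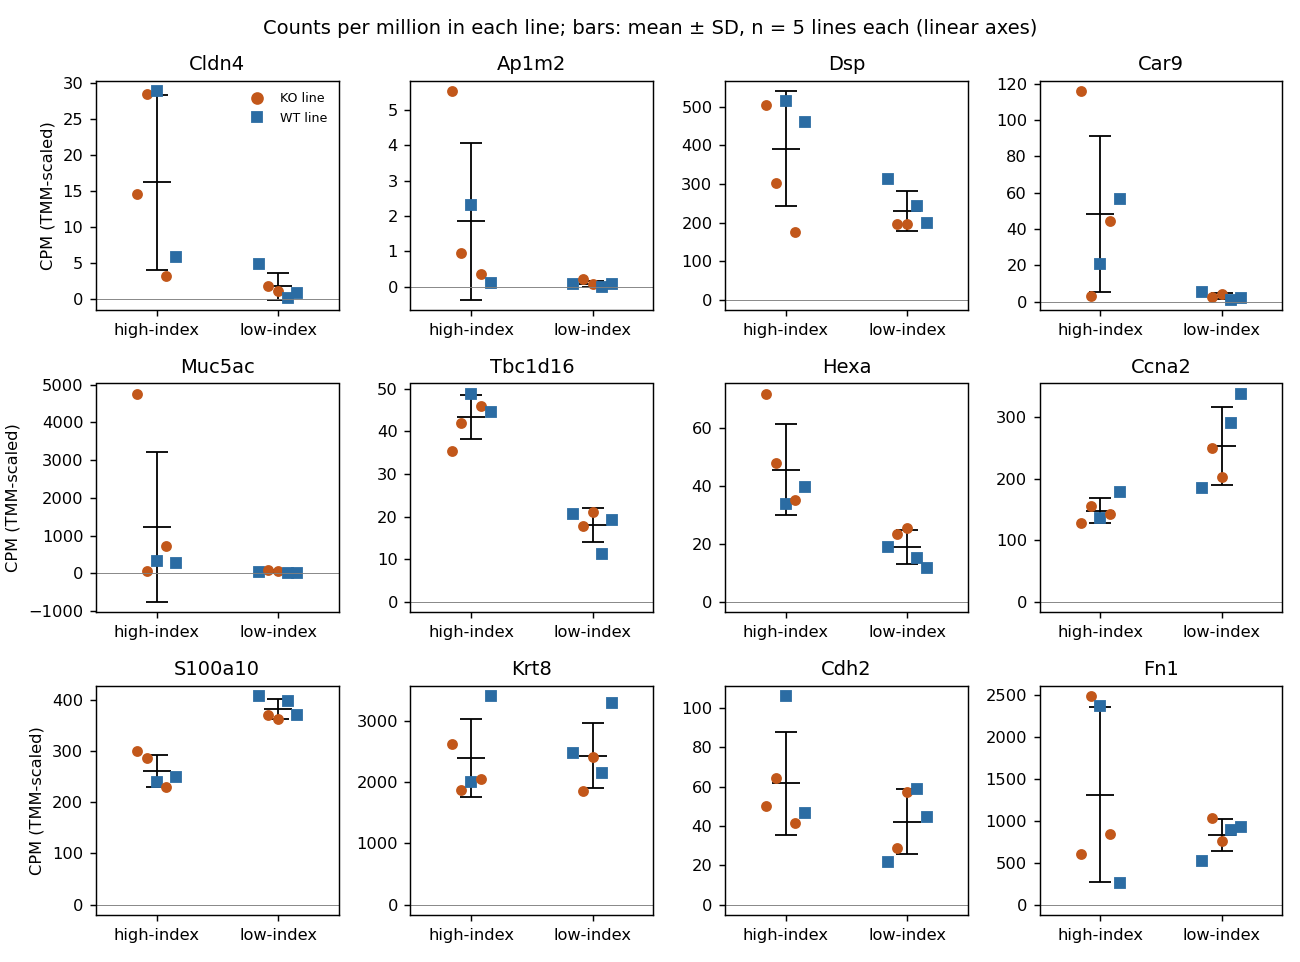
CPM (TMM-scaled, linear axes) of 12 genes in each line, high-index lines on the left and low-index lines on the right of each panel, with bars for the mean and SD of 5 lines each, circles for KO and squares for WT lines. Tbc1d16, Hexa, Ccna2 and S100a10 separate without overlap, and Cldn4 and Ap1m2 have 1 to 3 high-index lines far above the rest. Car9 and Muc5ac have every high-index line but KO line 3 above all low-index lines, and Krt8 and Cdh2 overlap between the classes.

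Markers of other cell types gave the following levels. Of the fibroblast markers Dcn, Lum and Dpt had 0 counts in all 10 lines, and the summed level was 60.1 to 476 CPM in high-index and 36.8 to 74.8 CPM in low-index lines. The top of that range is Cxcl12, a chemokine of fibroblasts, which stood at 428 CPM in WT line 3 and at 10.0 CPM or less elsewhere. Adgre1, Lyz2, Tyrobp and Cd52 of the leukocyte list had 0 counts in all lines, and the sum, 55.9 to 210 CPM in high-index and 76.1 to 128 CPM in low-index lines, was nearly all Cd14. Endothelial markers summed to 0.951 to 4.10 CPM in high-index and 0.439 to 1.502 CPM in low-index lines. Over the 4 tested, the median of the log2 fold changes was 1.77, but -0.045 with Xist as a covariate and 0.96 without KO line 1. Vwf did not overlap, at 0.262 to 1.34 CPM in high-index and 0 to 0.229 CPM in low-index lines (2.49 ± 0.87, edgeR adjusted p 0.602). The same was so for 0.739% of all genes in that direction. Vwf had 82 counts over the high-index and 13 over the low-index lines, most low-index values being below 3 counts in the smallest line. Its fold change is no bound, and the median of the list rests on low levels too. Mesothelial markers summed to 322 to 1473 CPM in high-index and 490.0 to 756 CPM in low-index lines, mostly Msln, which ductal cancer cells also express. All 4 tested were above 0, with a median log2 fold change of 0.85, and of 0.42 without WT line 5. Upk3b had the smallest p of them, at 1.29 ± 0.51 (edgeR adjusted p 0.603). It overlapped between the classes, at 3.29 CPM or less in every line. Acinar markers summed to 0.523 to 19.8 CPM in high-index and 2.35 to 10.3 CPM in low-index lines, with Cpa1, Cela2a and Amy2a5 at 0 throughout. Fewer cells of a type and less RNA per cell cannot be told apart in such bulk libraries, and the part of other cells in the differences was not tested beyond these levels.

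Whether the difference between the classes was the same in KO and WT lines was tested as an interaction. By edgeR 0 of 15555 genes passed (0.0%), 796 had an unadjusted p under 0.05 (5.12%), DESeq2 called 76 and limma-voom 0. The cells of this design hold 2 or 3 lines each. Among the 5 smallest p values were Bmp7, a bone morphogenetic protein, with 29.5 and 16.4 CPM in WT lines 3 and 5 and 0.490 CPM or less in the other 8 lines, and Sparc, a matricellular protein, with 446 and 148 CPM in the same lines and 13.8 to 41.3 CPM elsewhere. Both were thus high in the WT high-index lines and in no KO line. Zfp354a, Gm20467 and Prr16 completed the 5, at 7.61 CPM or less, and the adjusted p was 0.633 to 0.780.

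Tumors of the same animals were not used by the ranking, but the titles tie a tumor to only 1 high-index line (KO line 5, KO tumor 3) and to 4 low-index lines (WT lines 1, 2 and 4 and KO line 1). KO tumor 3 held 1704 CPM of Xist and 0 of the Y-linked Uty, whereas KO line 5 held 0 and 14.7 CPM, so this pair does not match its shared title. WT tumor 2 held 8.03 CPM of Uty and 14.5 CPM of Kdm5d, which WT line 2 held at 0 and 0.0392 CPM, and neither of this pair held Xist above 0.493 CPM. With the 1 tumor on the high-index side in doubt, tumors were not compared between the classes.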

How the data were processed

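Stranded mRNA libraries of 10 cell lines and 12 tumors were sequenced. The deposited tables hold raw counts per gene, made by the authors with bcl2fastq 1.9.0, Trim Galore and STAR on build mm10 per the submitters' processing notes; the annotation and strand setting of the counting are not given in the sources used here. The tables list 53342 genes, of which 105, with 0.00984% of counts, have no symbol. Lines were ranked on CPM of the column total with a pseudocount of 1 and divided into the upper 5 and lower 5. Genes were filtered with edgeR's filterByExpr and tested with edgeR 4.0.16 (TMM factors, robust quasi-likelihood fit, terms for class and genotype, Benjamini-Hochberg threshold 0.05) in R 4.3.3; the common biological coefficient of variation was 0.444. The standard error is the size of the log2 fold change divided by the square root of F. The interaction used the same genes with 1 more term. DESeq2 1.42.0 and limma 3.58.1 (voom) were alternatives, as were other factors and filters, lines left out, 1 genotype alone, the index as a continuous term, and Xist status (above 100 CPM or not). Tables and figures were made with Python 3.11.15, pandas 2.3.3 and matplotlib 3.10.9, and the fits were tested on simulated data.

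The classes, gene lists and named genes were chosen with earlier results of these data known. Genes named are the core genes, the member of each list with the smallest p, the 5 smallest interaction p values and, since no gene passed, the 10 with the smallest p in each direction at a mean of at least 1 CPM. Other members, mostly those with an unadjusted p under 0.05, were named after their values were seen. The Xist alternatives and the list of Atf4 targets were added after the data were seen. RefSeq promoters were matched by symbol. Some genes of these lists are not reported here.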

Additional observations from a re-analysis of the deposited data

Results flagged for a closer look

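In groups of 5 lines, a value was taken to stand apart where, on the scale of log2(CPM + 1), its gap to the nearest line divided by the range of the group was above 0.71. Of 104 such groups, 6 held one, and chance alone gives about 5% of groups.

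Twist1, a driver of the mesenchymal state, stood at 1.94 CPM in WT line 3, against 16.1 to 30.6 CPM in the other high-index lines, and at 0.108 CPM in WT line 4, against 13.7 to 28.9 CPM in the other low-index lines. Esrp1, the epithelial splicing regulator, stood at 18.8 CPM in WT line 2, against 0.288 to 1.63 CPM in the other low-index lines. Cxcl12 stood at 3.59 CPM in KO line 2, against 0 to 0.371 CPM in the other low-index lines. Tbc1d16 stood at 11.3 CPM in WT line 1, against 17.8 to 21.1 CPM in the other low-index lines. Tsc22d3 stood at 26.8 CPM in KO line 3, against 39.3 to 45.8 CPM in the other high-index lines. Outside the lines, Xist stood at 1704 CPM in KO tumor 3, whose title ties it to the animal of KO line 5, where Xist had 0 counts.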

How the results depend on the processing

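No paired analysis was possible because the labels number no lines across the 2 index classes. RLE and upper quartile factors, low-count filters, a stricter threshold, the fit without robust estimation, limma-voom, no genotype term, the continuous index, ranks 5 and 6 left out, KO lines alone and both Xist settings each called 0 genes higher and 0 lower by adjusted p. DESeq2 called 79 higher and 26 lower and 76 in the interaction; without ranks 4 to 7 edgeR called 1 higher (Xist), and among WT lines alone 1 higher (Evc2). With single lines left out, edgeR called 0 in each direction every time, the lower genes at an unadjusted p under 0.05 numbered 321 (without KO line 2) to 719, and the interaction calls 0 to 14; the 14 came without WT line 5, where the lone WT line of the upper class is assumed to vary like the others. Of 55 named genes, 42 kept their direction throughout, leaving out the Xist settings for Xist itself. With Xist as a covariate the log2 fold change was -0.68 for Fn1, -0.59 for Grhl2, -0.32 for Cldn7, -1.81 for Myl9 and 0.22 for Krt19. In the 7 lines without Xist it was -0.81 for Fn1, -0.55 for Grhl2, -0.20 for Cldn7, -0.10 for Cd14, 0.25 for Krt19 and 0.087 for Twist1. Without ranks 5 and 6 it was -0.24 for Snai2, -0.14 for Krt8 and -0.45 for Foxc1. Without ranks 4 to 7 it was 0.44 for Zeb2, -0.27 for Krt8, -0.36 for Foxc1 and -1.33 for Cela1. Among KO lines it was -0.41 for Snai2, 0.59 for Twist1, 0.84 for Prrx1 and -0.15 for Foxc1. Among WT lines it was -0.57 for Cldn7 and -0.13 for Cela1. The continuous index gave -0.036 for Snai2 and 0.077 for Twist1, the fit without genotype 0.021 for Twist1 and -0.026 for Krt8, and limma-voom 0.49 for Twist1. With single lines left out, values ran from -0.18 to 0.97 for Fn1, -0.16 to 0.52 for Snai2, -0.50 to 0.37 for Twist1, -0.93 to 0.22 for Prrx1, -0.13 to 0.17 for Krt8, -0.85 to 0.072 for Krt19, -0.36 to 0.92 for Foxc1 and -0.15 to 0.59 for Cd14. The cause of these reversals was not tested. Each list median under an alternative was compared with the main one. The limit was the SD between lines, within classes, of the list's mean log2(CPM + 1). Of 598 medians, 544 moved by less than this SD and 54 did not. A median could turn and still count among the 544. For the classical list the SD was 0.72, and its median went from 0.25 to -0.071 without KO line 4. With 1 genotype alone, medians that turned included -0.012 (mesenchymal), -0.030 (TGF-beta), -0.067 (MAPK), 0.087 (keratins) and 0.12 (cytokines) in KO lines, and to -0.58 (EMT factors), -0.15 (integrins) and -0.084 (classical) in WT lines. What changed these medians was not tested. The microRNA loci looked at had counts at or near 0 in these libraries.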

Other observations

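A list of Atf4 and its targets, the genes of the amino acid and endoplasmic reticulum stress response, was drawn up after the values of several members had been seen, so its counts are a description of these lines and support nothing. Of 34 genes 33 were tested, all 33 were above 0, the median log2 fold change was 0.63, and 20 had an unadjusted p under 0.05, against 4.65% of all genes. None was called by edgeR, whose smallest adjusted p in the list was 0.468. The sum over the list was 4259 to 9418 CPM in high-index lines and 3562 to 5489 CPM in low-index lines. Without WT line 5 the median was 0.32, with 7 at such a p, and without WT line 3 it was 0.84, with 28. With Xist status as a covariate it was 1.06, with 28.

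Trib3, a pseudokinase induced under stress, did not overlap, as was so for 0.739% of all genes in that direction. Its levels were 50.6, 44.1, 44.9, 84.3 and 207 CPM in high-index lines, against 33.7, 23.5, 22.7, 20.6 and 42.7 CPM in low-index lines, with a log2 fold change of 1.67 ± 0.40 (SE). WT line 5 and KO line 5, the high-index lines nearest the boundary, held the highest values. Atf4 itself, the transcription factor of this response, was also highest in these 2 lines, at 342, 312, 340, 466 and 786 CPM in high-index lines, against 354, 259, 283, 222 and 448 CPM in low-index lines (0.59 ± 0.26, edgeR adjusted p 0.610). Here WT lines 2 and 4, of the lower class, lay above 3 high-index lines. Atf5, a related factor, had 1.12 ± 0.24, Ddit4, an inhibitor of mTOR signalling, 1.08 ± 0.24, Sesn2, another such inhibitor, 1.05 ± 0.25, and Nupr1, a stress-induced nuclear protein of the pancreas, 1.39 ± 0.37. Without ranks 4 to 7 the median of the list was 0.25, with 25 of 33 above 0 and 3 at an unadjusted p under 0.05.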
